A study of Macaca fascicularis with 2 samples.

Results

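Pachytene spermatocytes of the scrotal cynomolgus monkey testis were examined in a single-cell RNA dataset. They were chosen by measured values. Among barcodes with at least 500 detected genes and under 5% of unique molecular identifiers (UMIs) from the sperm packaging genes PRM1, PRM2, TNP1 and TNP2, a cell was kept if the sum of PIWIL1, POU5F2 and MYBL1 was at least 5 per 10000 UMIs, rested on at least 3 UMIs and exceeded the sums of 3 other marker sets. Those sets were DMC1, MEIOB, SPO11 and PRDM9 for early meiotic prophase, CCNA1, AURKA and NEK2 for cells nearing division, and ACRV1, SPACA1, SUN5 and TXNDC8 for round spermatids. The rule kept 561 of 15001 barcodes of the scrotal library, which is 3.74% (exact 95% binomial interval 3.44 to 4.06%), out of 27353 barcodes in both libraries.

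Pachytene is the longest stage of the first meiotic prophase. Homologous chromosomes are held together along their length by the synaptonemal complex, recombination breaks are resolved and some become crossovers, and the X and Y chromosomes, which lack a full partner, are transcriptionally silenced in the sex body. The stage is also known for production of pachytene piRNAs, small RNAs bound by PIWI proteins such as PIWIL1, and for the making of transcripts that are stored for use after meiosis.

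The series compared a testis placed surgically in the abdomen (UAT), a model of unilateral cryptorchidism, with the contralateral testis left in the scrotum (CST), in the cynomolgus monkey (Macaca fascicularis). Each position had 1 library, made from 3′ transcript ends on the 10x Genomics droplet platform (version 3 kit). The tissue was digested at 37 °C for at most 30 min and strained at 40 µm, and the aim was 8000 to 10000 cells at over 80% viability. The sources used here give neither the number nor the age of the animals.

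The UAT library held 12564 barcodes and 111047299 UMIs, and the CST library held 15952 barcodes and 197225937 UMIs. The libraries shared 50 cell barcodes among all deposited, and 1 of the pachytene cells carried one of them. With 1 library per position and all germ cell classes from the same library, cells are not replicates, so no test was made and no p-value is given. Levels are in CPM, the UMIs of a gene summed over the cells of a class and given per 1000000 UMIs of that class. Intervals are exact 95% intervals of counting error and say nothing of differences between animals.

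The same rule, with each set's own sum largest, gave the neighbouring classes of the scrotal library. There were 135 early prophase cells, 1850 cells nearing division and 2663 round spermatids, beside 472 spermatogonia and 2029 stromal cells. Pachytene cells made up 22.0% of the 2546 early prophase, pachytene and dividing-stage cells (20.4 to 23.7%) and 9.88% of all 5681 germ cells in these classes (9.11 to 10.7%). These shares depend on marker depth and on the limits of the rule, and the classes are ranges cut from marker sums.

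Pachytene cells were RNA-rich. Their UMIs per cell ranged from 942 to 182250 with a median of 26041, against medians of 7603 in early prophase cells, 17613.5 in cells nearing division and 18409 in round spermatids. A median of 5726 genes was detected in a pachytene cell. The mitochondrial share of UMIs had a median of 4.08% in early prophase cells, 4.97% in pachytene cells, 2.77% in cells nearing division and 0.901% in round spermatids. The classes therefore differ in depth and mitochondrial share at every step compared here, and the part of either in the differences was not tested.

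Of the 3 genes that chose the cells, PIWIL1 carried most of the signal. PIWIL1, the PIWI protein of pachytene piRNAs, had at least 1 UMI in 99.5% of pachytene cells, against 8.38% of stromal cells, which should lack it. MYBL1, the transcription factor known in mouse as a switch for the pachytene programme, had a UMI in 82.5% of pachytene cells and 2.81% of stromal cells. POU5F2, a POU-family transcription factor, had one in 47.8% of pachytene cells and 1.04% of stromal cells, and 293 of the 561 cells had none. The stromal shares come from a median of 4877 UMIs per cell. Stromal cells were chosen with a low sum of these 3 genes and pachytene cells with a high one, so the contrast was set in advance. After every cell was thinned to 1000 UMIs, 61.7% of pachytene cells and 2.04% of stromal cells held a PIWIL1 UMI. The same figures were 15.4% and 0.546% for MYBL1 and 6.08% and 0.199% for POU5F2.

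The marker sum of the chosen cells ran from 5.01 to 38.9 per 10000 UMIs, with a median of 11.2. Just inside the limits stood 12 cells with a sum between 5 and 6, 40 cells with exactly 3 marker UMIs, and 16 cells whose sum exceeded that for cells nearing division by less than 1. Just outside stood 7 cells with a sum of 4 to 5, 65 cells with 2 marker UMIs, and 37 cells in which the sum for cells nearing division was ahead by less than 1. A further 374 cells passed 5 per 10000 but had another sum larger, and in 327 of them that was the sum for cells nearing division. The border with the next stage was thus the crowded one.

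Genes that the rule did not name were also looked at. They were chosen with earlier results of these data known, so they describe the class and are no independent check of its label. SPATA8, a testis-specific gene, had a UMI in 95.9% of pachytene cells (93.9 to 97.4%) and in 5.87% of stromal cells, or 72.3% and 1.49% after thinning. Its share was 24.4% in early prophase cells and 64.7% in cells nearing division, or 12.7% and 14.9% after thinning. SYCP3, a component of the synaptonemal complex axis, had one in 93.4% of pachytene cells and 8.63% of stromal cells, but also in 98.5% of early prophase cells and 83.9% of cells nearing division. After thinning, these SYCP3 shares were 37.4%, 2.38%, 70.15% and 25.5% in the same order. Of 22 genes listed as pachytene markers outside the rule, these 2 included, 21 were compared, with classes, minimum and 2-fold limit as described below. Of these, 13 were higher and 2 lower than in early prophase cells, 7 higher and 3 lower than in cells nearing division, and 12 higher and 4 lower than in round spermatids. Over all compared genes, the shares higher and lower were 17.6% and 37.8% against early prophase cells. They were 18.6% and 17.8% against cells nearing division, and 34.4% and 33.5% against round spermatids. Of 12 spermatogonial markers, 11 had UMIs in pachytene cells, together 14.4 CPM, against 153.7 CPM in stromal cells. ZBTB16 and UCHL1 made up 91.0 and 29.9 CPM of that stromal sum. The 5 stromal markers together reached 149 CPM in pachytene cells, 622 CPM in early prophase cells and 18780 CPM in stromal cells. The 6 Sertoli markers summed to 36.2 CPM in pachytene cells, 34.0 CPM of it from SOX9, which stood at 7.33 CPM in stromal cells. The 4 matched Leydig markers summed to 2.11 CPM in pachytene cells. The 5 macrophage markers summed to 43.5 CPM in pachytene cells, above the 22.7 CPM in stromal cells, and 54.5% of pachytene cells had a UMI of them. Most of that sum was CD163, at 30.8 CPM, while the macrophage markers CD68, C1QA and C1QB stood at 0.234, 1.99 and 1.76 CPM. The 5 endothelial markers summed to 28.8 CPM in pachytene cells, 25.4 CPM of it from CDH5, against 34.95 CPM in stromal cells. The part of such cells in the results was not tested.

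Some chosen cells carried signs of mixture. PRM1, which belongs to late spermatids, stood at 928 CPM in pachytene cells and 1596 CPM in stromal cells, which should lack it. A doublet score marked 58 of the 561 cells, and in those PRM1 stood at 3789 CPM, against 533 CPM in the 503 others. Of all 561 cells, whether marked by the doublet score or not, 23 had no SPATA8 UMI. Their median depth was 2328 UMIs, and RAD51AP2, an early prophase gene, stood at 1633 CPM in them, against 93.8 CPM in the 538 cells with SPATA8. The part of mixture, depth or stage in this difference was not tested. All these cells were kept in the values below. Values without doublet-scored or stromal-marked cells are given for the X-linked share only, and not for its ratios to other classes, the gene lists or single genes.

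Because the rule separated the classes by their RNA, the differences below describe the classes it made, and nothing is read from how many genes differ. Between pachytene and early prophase cells, 8274 genes passed a minimum of 20 CPM in either class and 30 UMIs in both together. Of these, 1456 (17.6%) were at least 2-fold higher and 3131 (37.8%) at least 2-fold lower in pachytene cells, and the median log2 ratio was -0.53. That balance depends on scaling. With the median ratio set to 1, a setting chosen after the data were seen, 2157 were higher and 2189 lower, so that the higher share of calls was 49.6% in place of 31.7%. With cells thinned to 1000 UMIs it was 57.3%. Scaling without the 50 most abundant genes moved the median to -0.39.

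Between pachytene cells and cells nearing division, 6875 genes were compared. Of these, 1276 (18.6%) were at least 2-fold higher and 1224 (17.8%) at least 2-fold lower in pachytene cells. Between pachytene cells and round spermatids, 2811 (34.4%) of 8163 were higher and 2735 (33.5%) lower. The median log2 ratios were 0.03 and 0.15, and 0.08 and 0.30 when the 50 most abundant genes were left out of the scaling. Early prophase cells had the fewest cells, the lowest depth and the most stromal RNA of these classes, so their levels are the least precise. In the gene groups that follow, counts against early prophase cells and against cells nearing division should be read beside these percentages.

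Of 10 measured genes that build the synaptonemal complex, none was at least 2-fold higher and 5 were lower than in early prophase cells, while 6 were higher and none lower than in cells nearing division. The median log2 ratio to early prophase cells over the matched members was -0.92, against -0.53 over all compared genes. SYCP1, the transverse filament protein, stood at 1674 CPM in early prophase cells, 313 CPM in pachytene cells and 86.4 CPM in cells nearing division. SYCP3 stood at 1314, 511 and 314 CPM in the same order of stages. TRIP13, the ATPase that removes HORMAD proteins from synapsed axes, had 33.3 CPM in pachytene cells and 153 CPM in early prophase cells. Other members stood closer to their early prophase level. HORMAD1, which marks unsynapsed axes, stood at 1002 CPM in early prophase cells, 868 CPM in pachytene cells and 369 CPM in cells nearing division. SYCE1, of the central element, had 275 CPM in pachytene cells and 232 CPM in early prophase cells. With the median ratio set to 1, the number of lower members was 3 in place of 5.

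Cohesin and axis genes were at least 2-fold lower than in early prophase cells in 6 of 7 compared members, and the median log2 ratio over all 8 matched was -2.05. SMC3, a core cohesin subunit, stood at 51.8 CPM in pachytene cells, against 1279 CPM in early prophase cells, a ratio of 0.0405 (0.0373 to 0.0440). The meiotic subunits SMC1B (270.5 and 1688 CPM) and RAD21L1 (6.27 and 114 CPM) also stood lower in pachytene than in early prophase cells. MEIKIN, a regulator of centromeres at the first division, was the member not lowered, with 38.4 CPM in early prophase cells, 57.3 CPM in pachytene cells and 13.9 CPM in cells nearing division.

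Genes for making and repairing DNA breaks differed among themselves. RAD51AP2, a meiotic recombination gene, stood at 2747 CPM in early prophase cells, 101 CPM in pachytene cells and 21.0 CPM in cells nearing division. ZCWPW1, a reader of the histone marks placed by PRDM9, had 10.1 CPM in pachytene cells and 1068 CPM in early prophase cells. BRCA2, a factor of homologous recombination, had 36.0 CPM in pachytene cells and 538 CPM in early prophase cells. In contrast, SPATA22, which binds single-stranded DNA together with MEIOB, stood at 730 CPM in early prophase cells, 1086 CPM in pachytene cells and 370 CPM in cells nearing division. Of the compared members, 3 of 6 break-formation genes and 4 of 9 strand-invasion genes were at least 2-fold lower than in early prophase cells and none was higher. Against cells nearing division, 4 of 9 strand-invasion genes were higher and none lower.

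Crossover factors were likewise mixed. Of 13 compared, 6 were at least 2-fold lower than in early prophase cells and none was higher, with a median log2 ratio of -1.16 over the 14 matched. Among the low ones, MSH5 had 28.4 CPM in pachytene cells and 118 CPM in early prophase cells. CCNB1IP1, a factor needed for crossovers in mouse, had 11.6 and 188 CPM in the same classes. CNTD1, a cyclin-like factor for crossover maturation, had 185 CPM in pachytene cells and 169 CPM in early prophase cells. MLH3, a mismatch repair family member that acts in crossover formation, had 67.5 CPM in early prophase cells, 48.6 CPM in pachytene cells and 9.19 CPM in cells nearing division. TEX11, which lies on the X chromosome, had 2.75 CPM in pachytene cells and 203 CPM in early prophase cells.

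X-linked genes stood low in pachytene cells, below the classes on either side when summed over each class. The summed share of 123 X-linked housekeeping genes was 1.02% of UMIs in spermatogonia, 0.780% in early prophase cells, 0.0644% in pachytene cells, 0.139% in cells nearing division and 0.227% in round spermatids. The level in pachytene cells was 0.0826 times that in early prophase cells (0.0804 to 0.0849) and 0.464 times that in cells nearing division (0.455 to 0.474). The 82 genes of the list that passed the minimum were at least 2-fold lower than in early prophase cells; most passed through the early prophase level, since 116 of the 123 were under 20 CPM in pachytene cells. Of all 123, 121 were lower, UPRT had no UMI in either class and BRCC3 had UMIs in pachytene cells but none in early prophase cells. The median log2 ratio over the 123 genes was -3.40, against -0.53 over all compared genes.

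**Figure D1:**
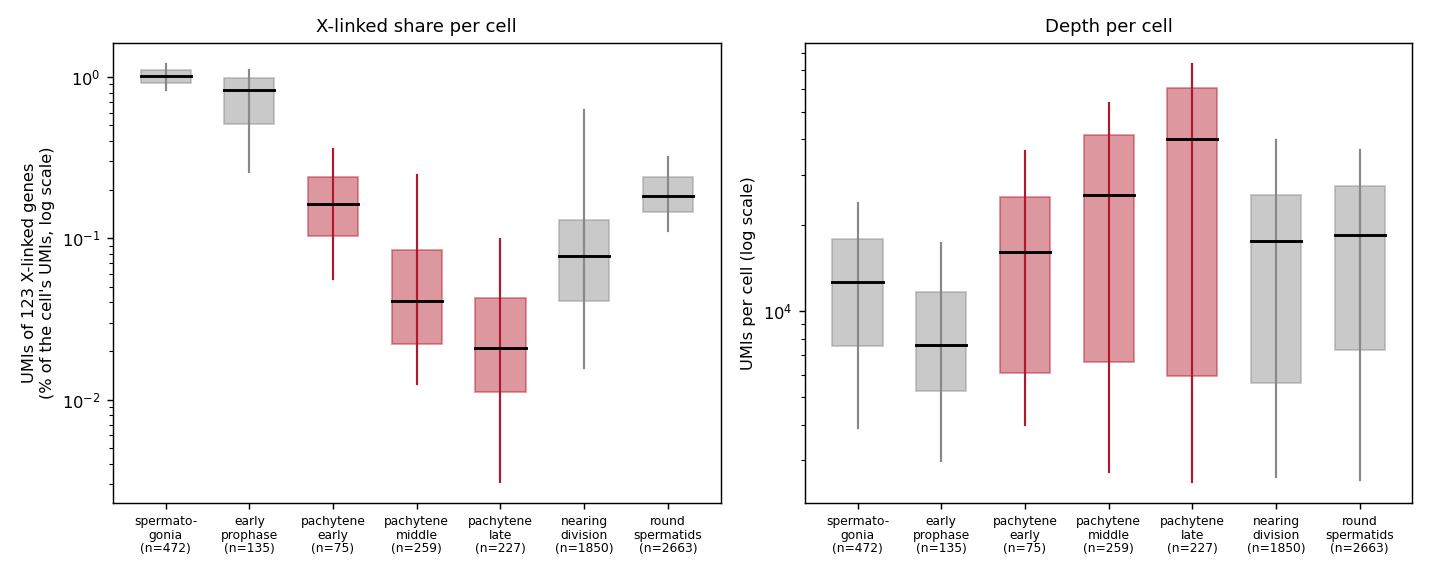
Share of UMIs from 123 X-linked housekeeping genes (log scale) by germ cell class and pachytene subset, and UMIs per cell for the same groups; black lines are medians over cells, boxes the quartiles and whiskers the 10th and 90th percentiles. The median X-linked share was lowest and the median depth highest in the late pachytene cells.

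Single genes of the list show the size of the difference. UBA1, the main ubiquitin-activating enzyme, was at 0.0303 of its early prophase level (0.0146 to 0.0594), and PDHA1, a pyruvate dehydrogenase subunit, at 0.0124 (0.0067 to 0.0216). DDX3X, an RNA helicase, had 11.6 CPM in pachytene cells and 149 CPM in early prophase cells. The highest remaining levels in pachytene cells were those of PRDX4, a peroxiredoxin (120 CPM, against 562 CPM in early prophase cells), and of the ribosomal protein gene RPS4X (59.7 and 311 CPM). In all, 45 of the 123 genes were under 1 CPM in pachytene cells. X-linked germline genes were low too. TKTL1, a transketolase-like gene, had 6.44 CPM in pachytene cells and 574 CPM in early prophase cells. The 24 X-linked germline genes together stood at 1972 CPM in early prophase cells, 93.5 CPM in pachytene cells and 417 CPM in cells nearing division.

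The X-linked share was itself uneven among pachytene cells. Over single cells it had a median of 0.0344% with a 10th percentile of 0.00810% and a 90th of 0.219%, and 42 cells had no UMI of the list. In the 58 cells marked by the doublet score it was 0.224% (0.218 to 0.231%), against 0.0423% (0.0413 to 0.0433%) in the 503 others. In the 25 cells with at least 5 stromal marker UMIs per 10000 it was 0.362%, and without them 0.0509%. Stromal cells held 2.39%. The part of free RNA and doublets in the remaining X-linked signal was not tested.

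**Figure D2:**
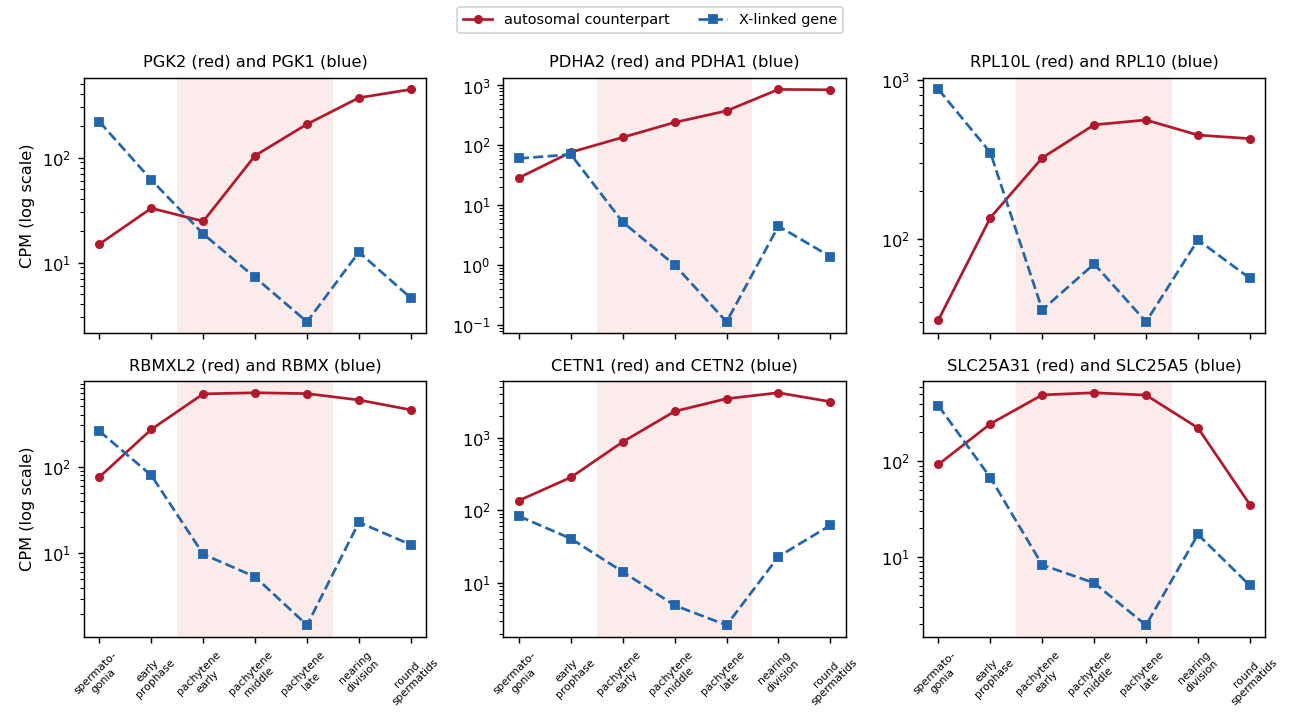
Levels in CPM (log scale) of X-linked genes (blue) and autosomal counterparts (red) across germ cell classes and the 3 pachytene subsets, in stage order. In each of the 6 pairs the X-linked gene was lower in pachytene than in early prophase cells, while the autosomal gene was higher.

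Autosomal counterparts of X-linked genes ran the other way in 7 pairs. PGK2, the testis phosphoglycerate kinase, had 151.6 CPM in pachytene cells and 32.9 CPM in early prophase cells, whereas PGK1 had 5.798 and 61.2 CPM in the same classes. PDHA2 had 303 CPM in pachytene cells and 76.9 CPM in early prophase cells, whereas PDHA1 had 0.879 and 70.6 CPM. CETN1, a centrin, had 2803 CPM in pachytene cells and 285.5 CPM in early prophase cells, a ratio of 9.82 (8.86 to 10.9). RBMXL2, a splicing regulator required for meiosis in mouse, had 704 CPM in pachytene cells and 270 CPM in early prophase cells. RPL10L, the germline ribosomal protein, had 527 CPM in pachytene cells and 137 CPM in early prophase cells, and SLC25A31, a mitochondrial carrier of ADP and ATP, had 503 and 246 CPM. RPL39L, another ribosomal protein gene, completed these pairs with 1471 CPM in pachytene cells and 654 CPM in early prophase cells. Over the 11 compared members, 7 were higher and 3 lower than in early prophase cells, the 3 being SMC1B, STAG3 and TAF1L. RPL10L and RPL39L resemble their X-linked relatives closely, and the sources used here do not say how reads shared by near-identical genes were counted.

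Genes known for silencing unsynapsed chromosomes were measured in 18 of 19 matched members. None was at least 2-fold higher than in early prophase cells and 8 were lower, while 6 were higher and 2 lower than in cells nearing division. With the median ratio set to 1, 3 were higher and 5 lower than in early prophase cells. HORMAD2, an axis protein, stood at 175 CPM in early prophase cells, 300 CPM in pachytene cells and 265 CPM in cells nearing division. MDC1, the adaptor that spreads H2AX phosphorylation, stood at 97.3, 127 and 53.2 CPM in those stages. BRCA1, which acts on the axes, was at 0.0660 of its early prophase level (0.0563 to 0.0772). H2AX, the histone that is phosphorylated, had 141 CPM in pachytene cells and 188 CPM in early prophase cells.

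Of the piRNA pathway genes, more were higher than lower in pachytene cells. Compared with early prophase cells, 7 of 21 members passed 2-fold upwards and 1 downwards. Against cells nearing division, 12 were higher and 1 lower. Without PIWIL1, which the rule used, the pathway's sum was 3652 CPM in early prophase cells, 4389 CPM in pachytene cells and 2928 CPM in cells nearing division. The median log2 ratio to early prophase cells over the 25 other matched members was 0.40. TDRD1, a scaffold of the germ granule, stood at 54.1, 186 and 40.2 CPM in the same stages. TDRD5 stood at 58.04, 154 and 23.5 CPM, and HENMT1, the enzyme that methylates piRNA ends, at 96.5, 217 and 87.9 CPM. FKBP6, a co-chaperone, had 623 CPM in pachytene cells and 145 CPM in cells nearing division. The exceptions were TEX15, needed for silencing of retrotransposons, which had 6.44 CPM in pachytene cells and 537 CPM in early prophase cells, and MAEL at 114 and 227.5 CPM. With the median ratio set to 1, 12 members in place of 7 were higher than in early prophase cells.

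Of 14 compared testis histones and histone readers, none was at least 2-fold higher and 3 were lower than in early prophase cells. Of 11 compared with cells nearing division, 4 were higher and 1 was lower. H1-6, the testis linker histone, stood at 573 CPM in early prophase cells, 1048 CPM in pachytene cells and 82.2 CPM in cells nearing division. H2BC1, the testis form of H2B, stood at 784, 1561 and 126 CPM, and H2AC1 at 191, 226 and 20.2 CPM. The pachytene levels of these 3 were 12.7, 12.4 and 11.2 times those in cells nearing division. Relative to early prophase cells they were under the 2-fold limit, and 5 members of the list passed it when the median ratio was set to 1. H1-1, a somatic linker histone, had 6.68 CPM in pachytene cells and 762 CPM in early prophase cells. BRDT, a reader of acetylated histones, had 255 CPM in early prophase cells, 486 CPM in pachytene cells and 530 CPM in cells nearing division. The H1-6, H2BC1, H2AC1 and H1-1 features were named through their RefSeq gene numbers, and the counting of reads shared with close histone copies is not known.

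Of the 28 compared RNA-binding and translation genes, 6 were higher and 6 lower than in early prophase cells, while most testis isoforms of energy enzymes were higher. YBX1, YBX2 and YBX3, cold-shock proteins that package stored RNA, stood at 4326, 877 and 2788 CPM in pachytene cells, against 848, 134 and 282 CPM in early prophase cells. Their ratios were 5.10, 6.54 and 9.90. The median log2 ratio over the 34 matched RNA-binding genes was -0.05, and 11 were higher with the median ratio set to 1. DAZL, a translational activator of earlier germ cells, was among the lower, at 174 CPM in pachytene cells and 573 CPM in early prophase cells. Among testis isoforms of energy enzymes 8 of 11 were higher and none lower, with a median log2 ratio of 1.23 over the 16 matched. LDHC, the testis lactate dehydrogenase, had 3269 CPM in pachytene cells and 639 CPM in early prophase cells, and PGAM2 had 572 and 54.9 CPM. GAPDHS, the sperm form of the glycolytic dehydrogenase, did not share the pattern, with 25.6 CPM in pachytene cells and 786 CPM in round spermatids. PABPC1 and PABPC3, poly(A)-binding proteins of near-identical sequence, were both higher, at 692 and 92.2 CPM in pachytene cells, against 197 and 24.3 CPM in early prophase cells.

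Heat shock genes differed in both directions. Of 25 compared members, 7 were higher and 6 lower than in early prophase cells. HSPA2, the testis member of the HSP70 family known for the synaptonemal complex in mouse, stood at 85.5 CPM in early prophase cells, 239.5 CPM in pachytene cells and 81.4 CPM in cells nearing division. HSPA8, the constitutive member, had 58.3 CPM in pachytene cells and 681 CPM in early prophase cells. HSP90AA1, a cytosolic chaperone, had 5917 CPM in early prophase cells, 5513 CPM in pachytene cells and 1929 CPM in cells nearing division. Of the cold-inducible RNA-binding proteins, CIRBP stood at 942 CPM in early prophase cells, 760 CPM in pachytene cells and 140 CPM in cells nearing division. RBM3 lies on the X chromosome and stood at 6.85 CPM in pachytene cells, against 210 CPM in early prophase cells. Of the cell death genes, BAX, which permeabilises mitochondria, had 1.05 CPM in pachytene cells and 32.9 CPM in early prophase cells. APAF1, the caspase activator, had 1.82 and 48.6 CPM. DIABLO had 1070 CPM in pachytene cells and 580 CPM in early prophase cells.

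Transcription regulators of different stages differed in opposite directions. TCFL5, known in mouse for pachytene gene activation, had 677 CPM in pachytene cells and 125 CPM in early prophase cells. HSF5, a heat shock factor of meiotic cells, had 170 and 29.0 CPM, and SOX30, which acts towards the spermatid programme, 179 and 58.8 CPM. CREM, an activator of spermatid genes, had 640 CPM in pachytene cells and 216 CPM in early prophase cells. Among 25 compared regulators 8 were higher and 9 lower. The lower included DMRT1, a factor of spermatogonia, with 1.76 CPM in pachytene cells and 173 CPM in early prophase cells, and E2F1, a cell cycle factor, with 2.93 and 129 CPM.

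Genes of later sperm structures were already present. Of 32 compared axoneme and tail genes, 26 were at least 2-fold higher than in early prophase cells and none lower, and the median log2 ratio over all 46 matched was 1.34. Against cells nearing division, none of 36 was higher and 11 were lower. SPAG6, of the central pair, stood at 63.5 CPM in early prophase cells, 526 CPM in pachytene cells, 678 CPM in cells nearing division and 385 CPM in round spermatids. RSPH1, a radial spoke protein, stood at 48.6, 377, 278 and 46.8 CPM in those stages. Some tail genes stood low in pachytene cells. AKAP4, which is also one of the X-linked germline genes above, had 8.20 CPM in pachytene cells and 165 CPM in round spermatids. TEKT1 had 4.63 and 353.5 CPM. TUBA3E, a tubulin with close copies, had 2638 CPM in pachytene cells and 1148 CPM in early prophase cells.

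Acrosome genes differed in both directions. Of 14 compared members, 9 were higher and 2 lower than in early prophase cells, and 12 of 19 were lower than in cells nearing division. A member can pass the minimum through the one class where it is high, and over all 24 matched members that the rule did not use the median log2 ratio to early prophase cells was 0.44. SPINK2, an inhibitor of acrosomal proteases, stood at 327 CPM in early prophase cells, 3494 CPM in pachytene cells, 3589 CPM in cells nearing division and 1582 CPM in round spermatids. CRISP2 stood at 343.5, 2695, 4605 and 5056 CPM in those stages. ADAM2, a sperm surface protein, stood at 32.9, 355, 162 and 53.7 CPM. EQTN, an acrosomal membrane protein, had 3.63 CPM in pachytene cells and 417 CPM in round spermatids.

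**Figure D3:**
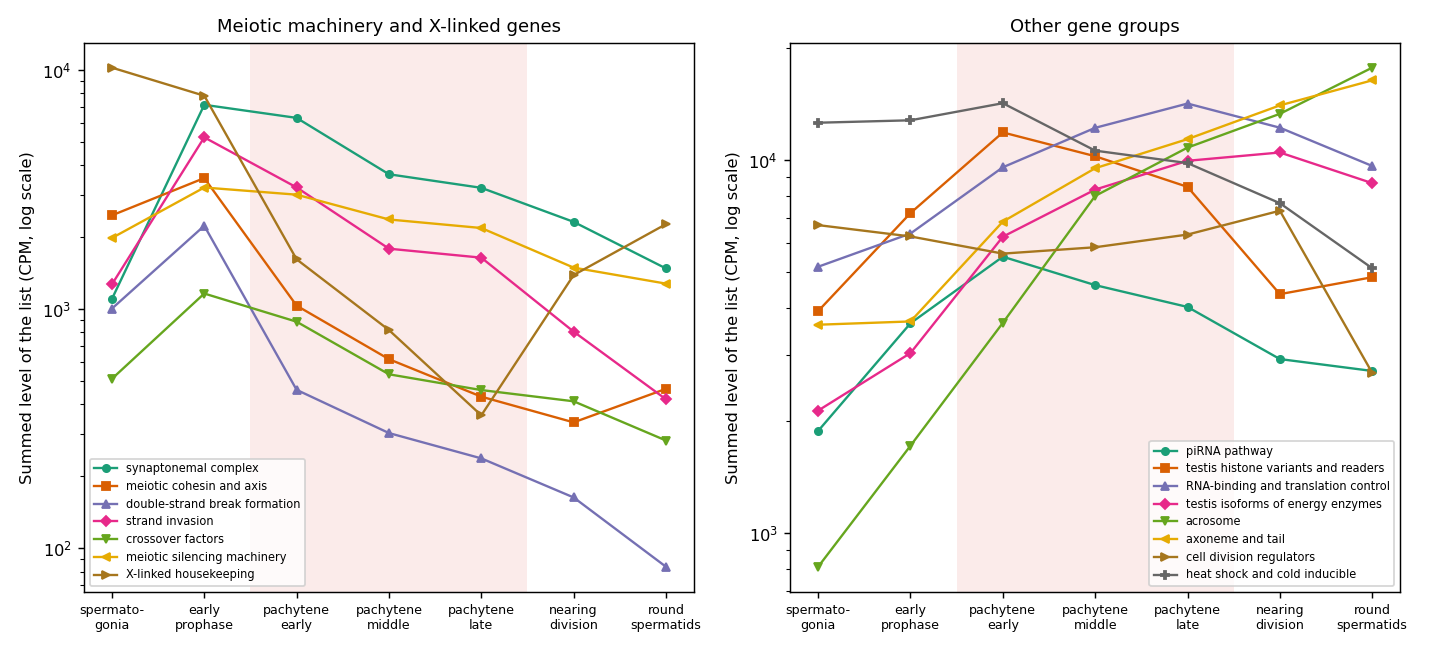
Summed levels in CPM of gene lists across germ cell classes and the pachytene subsets, in stage order, without the genes that the rule used. X-linked housekeeping genes were lowest in late pachytene cells, while acrosome and axoneme lists were higher in each later class drawn from early prophase cells to round spermatids.

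Cell division genes also differed in both directions. Of 30 compared members, 4 were higher and 16 lower than in early prophase cells, and 7 and 11 with the median ratio set to 1. Of 27, 4 were higher and 12 lower than in cells nearing division. CCNB2, a B-type cyclin, stood at 180 CPM in early prophase cells, 638 CPM in pachytene cells and 1415 CPM in cells nearing division. PTTG1, the securin, stood at 172, 565 and 1451 CPM. CKS2, a subunit of cyclin-dependent kinases required for meiosis in mouse, stood at 1033, 2127 and 523 CPM, so it was highest in pachytene cells of these 3 stages. PLK1, the mitotic kinase, had 13.5 CPM in pachytene cells and 228 CPM in cells nearing division, a ratio of 0.0591 (0.0517 to 0.0674). MKI67, a proliferation marker, had 35.4 CPM in pachytene cells and 149 CPM in early prophase cells.

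Outside the lists, the 10 genes furthest above early prophase cells included PPP3R2, a testis regulatory subunit of calcineurin, with 2363 CPM in pachytene cells and 82.4 CPM in early prophase cells. PROK2, a secreted prokineticin, had 184 and 3.14 CPM, a ratio of 58.7 (22.9 to 215). FEZF1, a zinc-finger factor better known from forebrain, had 106 CPM in pachytene cells and 2.35 CPM in early prophase cells. LYL1, a helix-loop-helix factor better known from blood, had 234 and 7.06 CPM. PEBP4 had 864 CPM in pachytene cells and 40.0 CPM in early prophase cells. PCDHB8, a protocadherin, had 112 CPM in pachytene cells and no UMI in early prophase cells. Of the 10 genes furthest below, XAGE3, OTUD6A, CT45A10, ZNF280C, CCNB3 and TKTL1 lie on the X chromosome in human. XAGE3 had 3 UMIs in pachytene cells and 109 CPM in early prophase cells, a ratio of 0.00161 (0.000328 to 0.00481). CLSPN, a replication checkpoint mediator, had 4.98 CPM in pachytene cells and 468 CPM in early prophase cells.

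The genes furthest above cells nearing division included the testis histones and GML, with 171 CPM in pachytene cells and 10.6 CPM in cells nearing division. ELFN2, a leucine-rich membrane protein, had 237 and 27.2 CPM. SENP6, a SUMO protease, had 170 and 18.6 CPM, and TDRD15, a tudor domain gene, had 148 and 16.1 CPM. Below them stood ZMYND15, a repressor of spermatid genes in mouse, with 2.69 CPM in pachytene cells and 108 CPM in cells nearing division. ASCL5 had 5.27 and 189 CPM, ITPKA, an inositol phosphate kinase, 5.798 and 160.5 CPM, and the small heat shock gene HSPB1 30.5 and 565 CPM. TUBB2A, a beta-tubulin, had 24.2 CPM in pachytene cells and 343 CPM in cells nearing division. Each of these genes of the later class stood at 30.5 CPM or less in pachytene cells.

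Against round spermatids, CDCA8, a subunit of the chromosomal passenger complex, stood at 177.5 CPM in pachytene cells and 3.57 CPM in round spermatids. YEATS4, a reader of histone marks, had 675 and 14.8 CPM, and ACYP1, an acylphosphatase, 1434 and 32.2 CPM. The genes furthest lower were spermatid genes. TMEM210 had 10.7 CPM in pachytene cells and 1123 CPM in round spermatids, and TMCO2 11.5 and 1095 CPM.

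Genes were also ranked by their pachytene level over that of the next highest class, as a description. Of 1811 genes at 100 CPM or more, 490 were highest in pachytene cells among 6 classes and 47 of them at least 2-fold over the next. SPATA8 led them, with 1558 CPM in pachytene cells and 246 CPM in cells nearing division. ACYP1 had 1434 CPM in pachytene cells and 327 CPM in cells nearing division. MORC1, which silences retrotransposons in the male germ line in mouse, had 380 and 102 CPM. LDHAL6B, a lactate dehydrogenase-like gene, had 461 CPM in pachytene cells and 144 CPM in cells nearing division. CCDC112 had 915 and 287 CPM, and CDKN2C, an inhibitor of cyclin-dependent kinases, 104.5 CPM in pachytene cells and 42.2 CPM in stromal cells. COPRS, a histone-binding partner of PRMT5, had 891 CPM in pachytene cells and 324 CPM in spermatogonia. The most abundant transcript of all was ANKRD7, with 8608 CPM, followed by GSTM3, a glutathione transferase, with 7829 CPM and GLIPR1L1 with 6646 CPM.

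**Figure D4:**
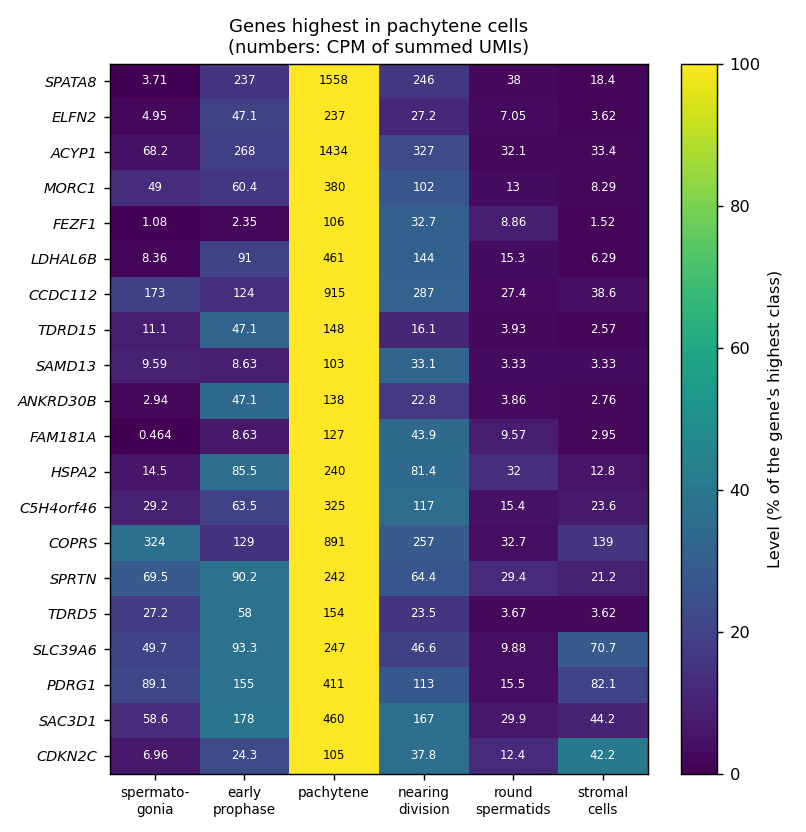
Levels in CPM of the 20 genes with the largest ratio of the pachytene level to the next highest class, in 6 classes; numbers in the boxes are CPM and colour gives the level as a percent of the gene's highest class. SPATA8 stands at 1558 CPM in pachytene cells and at or under 246 CPM in every other class shown.

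Levels also differed among the pachytene cells. They were parted by the early and late marker sums into 75 early cells, with the early prophase sum above that for cells nearing division, 259 middle cells and 227 late cells, in which the sum for cells nearing division was at least 5 per 10000 UMIs. Their median depths were 16143, 25605 and 40041 UMIs. These subsets were cut on the same marker sums, so their differences are described and not tested. Of 7194 genes compared, 950 (13.2%) were at least 2-fold higher and 1980 (27.5%) at least 2-fold lower in late than in early cells. With the median ratio set to 1 these numbers were 1402 and 1228, so that the higher share of calls was 53.3% in place of 32.4%. It was 63.3% after thinning. Without the 50 most abundant genes in the scaling, the median log2 ratio was -0.31 in place of -0.38.

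Some early prophase genes stood highest in the early subset. RAD51AP2 stood at 1085 CPM in early cells, 34.7 CPM in middle cells and 3.18 CPM in late cells, and 29, 212 and 208 of the cells in those subsets had no UMI of it. SYCP1 stood at 1998, 250 and 107 CPM across the 3 subsets. MND1, a strand-invasion factor, stood at 230, 30.8 and 7.96 CPM. The synaptonemal and silencing lists held no member at least 2-fold higher in late than in early cells, and 3 of 10 and 8 of 18 compared members were lower, against 27.5% of all compared genes. TEX12, of the central element, was one of the lower genes, at 307 CPM in early cells and 86.3 CPM in late cells.

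X-linked levels were lower with each subset. The 123-gene list summed to 1615 CPM in early cells, 817 CPM in middle cells and 360 CPM in late cells. The late level was 0.223 times the early level (0.211 to 0.235). In the same comparison, 6 of 11 testis isoforms of energy enzymes, 13 of 32 axoneme and tail genes and 8 of 11 acrosome genes were at least 2-fold higher in late cells and none was lower. Over all compared genes, 13.2% were higher and 27.5% lower. Members can pass the minimum through the late cells alone. Over all matched members, the median log2 ratios of these lists were 0.74, 0.65 and 0.57, against -0.38 over all compared genes. PGAM2 stood at 47.2 CPM in early cells, 385 CPM in middle cells and 799 CPM in late cells, and CETN1 at 881, 2324 and 3473 CPM. LDHC stood at 1805, 2809 and 3853 CPM, and DKKL1, an acrosomal protein, at 157, 664 and 1123 CPM. Other genes differed little: SLC25A31 had 494, 520 and 491 CPM in the 3 subsets, SPATA22 had 1158, 1055 and 1099 CPM, HSF5 168.5, 170.5 and 169 CPM, and SPATA8 1345, 1606 and 1553 CPM. The late cells were also the deepest, and depth and stage cannot be told apart here.

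**Figure D5:**
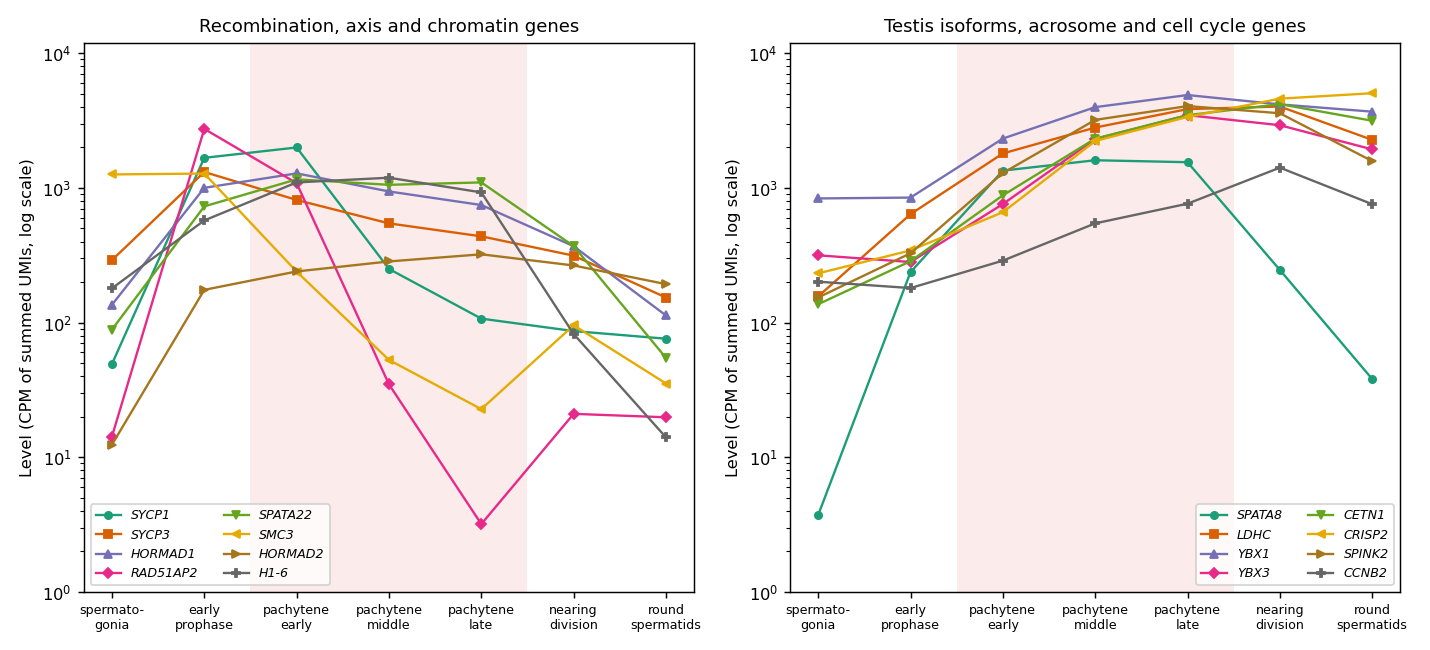
Levels in CPM (log scale) of single genes across germ cell classes in stage order; the shaded band holds the 3 pachytene subsets. RAD51AP2 stood at 1085 CPM in early and 3.18 CPM in late pachytene cells, SPATA22 at 1158 and 1099 CPM, and LDHC, CRISP2 and CETN1 were higher in each later subset.

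In the abdominal testis, the same rule found 2 cells among 12352 barcodes, or 0.0162% (0.00196 to 0.0585%), against 561 of 15001 in the scrotal testis. One of the 2 had 15271 UMIs and 8 marker UMIs, 3 of PIWIL1 and 5 of MYBL1, so that its marker sum was 5.24 per 10000 UMIs. The other had 4284 UMIs and 3 marker UMIs. Its spermatogonial marker sum was 14.01 per 10000 UMIs. Neither had a UMI of POU5F2 or SPATA8, and free RNA or other cells as their source was not tested. The abdominal library also held 142 spermatogonia, 1 early prophase cell, 11 cells nearing division and 0 round spermatids by the same rule. Most of these 11 held spermatogonial marker UMIs, with a sum of up to 17.19 per 10000 UMIs. Most also held H1-6 UMIs, up to 15 in a cell, and the 2 deepest cells held 12 and 7 SYCP3 UMIs. A cell without spermatogonial marker UMIs held 9 UMIs of the division set, 3 of SPATA8, 2 of PIWIL1 and 1 of POU5F2. In scrotal spermatogonia, AURKA and NEK2 stood at 142 and 86.2 CPM, H1-6 and SYCP3 at 180 and 291 CPM, and SPATA8 at 3.71 CPM. Whether the 11 cells were meiotic was not tested. With 1 library per position, the effect of position cannot be told apart from that of the library or animal. Pachytene gene levels were not compared between the testes because of these cell counts.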

How the data were processed

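Both files are deposited count matrices of UMIs, in whole numbers and with no normalisation by the authors. The matrix headers name Cell Ranger 5.0.0. The submitters' processing notes give Cell Ranger 3.0.1 instead, and the mouse build mm10. Features bear RefSeq symbols of the macaque, so the build was not settled and no coordinates are given. Of 28845 features, 11526 had only a LOC name. A RefSeq gene table of the species gave 721 of them a symbol, and 67 kept the LOC name because the symbol was taken.

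Counts were summed per class and expressed as CPM. Genes compared had at least 20 CPM in either class and 30 UMIs together, and 18 genes of the rule and the protamine filter were left out of counts of compared genes. Calls are 2-fold, medians use a pseudocount of 1 CPM, and intervals are exact conditional binomial 95% intervals. Doublets were scored as neighbours of simulated pairs on 30 components, which marked 1800 (12.0%) of 15001 cells; they were kept in the main values. Genes named are members of 23 lists (591 of 620 members matched), the 10 highest and 10 lowest per comparison by the interval bound nearest 1 at 100 CPM, the 20 with the largest ratio to the next class and the 15 most abundant. The members and lists were chosen with earlier results of these data known. Python 3.11.15, NumPy 2.4.6, SciPy 1.17.1, pandas 2.3.3 and scikit-learn 1.9.0 were used, and the interval step was tested on simulated data. No sequence is printed.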

Additional observations from a re-analysis of the deposited data

How the results depend on the processing

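No paired analysis was possible because each position had 1 library. Of the main values, the number of cells became 373 when the marker sum had to be at least 10 per 10000 UMIs, in place of 561. The X-linked share of 0.0644% became 0.0730% (sum at least 3), 0.0492% (at least 10), 0.0625% (5 marker UMIs), 0.0423% (doublets removed), 0.0250% and 0.0564% (free RNA subtracted, its share taken from stromal or from protamine genes), 0.0968% (mean over cells), 0.103% (thinned to 1000 UMIs), 0.0808% (scaling without the 50 most abundant genes) and 0.0509% (stromal-marked cells removed). The minimum level set most counts of genes. At 50 CPM, 1728 genes were lower than in early prophase cells, 762 higher and 700 lower than in cells nearing division, 1662 and 1751 than in round spermatids, and 617 and 1024 in late than in early subset cells. At 5 CPM, 2076 were higher and 2343 lower than in cells nearing division, 4410 and 4289 than in round spermatids, and 1520 were higher in late cells. After thinning, 824 were lower than in early prophase cells, and 432 higher and 251 lower in late cells, and fewer genes passed the minimum. With the median ratio set to 1, 1228 were lower in late cells. The removal of stromal-marked cells, the minimum of 5000 UMIs, the protamine-based free RNA share and the median scaling were chosen after the data were seen. The other 142 of 169 settings of the main values stayed within the limits set, which were wide for counts. Against early prophase cells, 1456 higher genes became 2100 (stromal-based free RNA subtracted) or 2157 (median ratio set to 1), and 3131 lower genes became 2189 (median ratio set to 1). All 3 changes counted as within the limits. Of 3229 recomputed ratios of single genes, 902 moved beyond their counting interval. A change of direction was counted only for ratios reported at or beyond the fold limit for calls. Smaller ratios that crossed 1 were not counted as changing direction. By that count, 1 ratio changed direction. AKAP4 over early prophase cells was 1.318 after thinning, in place of 0.475, and the cause was not tested. Depth limits the early prophase side most, with 1274924 UMIs in 135 cells.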
